A study of Mus musculus with 4 samples.

Results

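The clustered core histone genes encode the 4 proteins, H2A, H2B, H3 and H4, around which DNA is wrapped in the nucleosome. They were taken here as the genes whose symbol begins with Hist1 to Hist4 followed by h2a, h2b, h3 or h4, which found 58 of the 17559 genes in the data: 17 for H2A, 17 for H2B, 11 for H3 and 13 for H4. The Hist1 symbols on chromosome 13 made up 46 of them, the Hist2 cluster on chromosome 3 held 8, the Hist3 cluster on chromosome 11 held 3, and 1, *Hist4h4*, lies on chromosome 6. *Hist1h2al*, a transcribed pseudogene, lies apart from the other Hist1 genes at chr13:51200084-51203066, and was at 0.21 FPKM (fragments scaled to transcript length and library size) or less in every library. The rule used symbols only and no measured value.

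RNA-seq compared 2 control libraries with 2 libraries treated with NaBu (1 mM, 12 h), the usual short name of sodium butyrate, which blocks histone deacetylases. All 4 came from CD8+ T cells of C57BL/6 mice with the OT-I genotype, a transgenic T cell receptor for an ovalbumin peptide, from tissue labelled LN. Before treatment, cells of more than 95% purity were stimulated for 2 d with IL-2 (10 ng/ml) on a coat of 2 antibodies, to CD3 at 1 µg/ml and to CD28 at 2 µg/ml, and kept for 2 d more in IL-2 alone, so the controls had been through the same activation. The labels do not tell whether replicates are separate animals or cultures, and the p-values cover no more than the spread of these libraries, which may be technical.

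Most of these genes are replication-dependent. They are transcribed in S phase, when new chromatin needs histones, from promoters served by the coactivator NPAT, and they lack introns. Their mRNAs end in a conserved stem-loop instead of a poly(A) tail. The stem-loop is bound by SLBP, which directs 3′ end cutting, export and translation, and the mRNAs are degraded when DNA synthesis stops. Near-identical copies share reads, so the sums over a class are given first and single genes after them.

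The stem-loop is shown because it is the feature that these mRNAs share across classes. GENCODE M21 transcripts, present for 56 of the 58 genes, were searched for a fixed pattern of 16 bases with some variable letters. The pattern has a stem of 6 base pairs around a loop of 4 bases. It was found in 40 genes, in 8 forms. A transcript annotated to end before the stem-loop cannot match, so the other genes may still hold it. The forms of the genes with the largest values below are printed 5′ to 3′ with the loop in capitals.
Hist1h2ap, Hist1h2ao, Hist3h2a and Hist3h2ba: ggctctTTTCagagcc
Hist1h3c: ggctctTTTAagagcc
Hist1h4i: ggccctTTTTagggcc
The first form was the most frequent, in 9 H2A, 8 H2B and 4 H3 genes. It was shared by *Hist1h2ap* and *Hist1h2ao*, which were lower in NaBu, and by *Hist3h2a* and *Hist3h2ba*, which were higher. The annotated transcript ended 3 bases after the stem-loop in *Hist1h2ap* and 31 bases after it in *Hist1h2ao*. It ran on for 1643 bases in *Hist3h2a* and 169 bases in *Hist3h2ba*. These distances are of the GENCODE transcripts. The transcript lengths listed with the counts were 508 bases for *Hist3h2a* and 462 for *Hist3h2ba*, so the 1643 bases were not in the quantified transcript.

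Promoters of the genes that moved most in each direction are shown as the 250 bases before the RefSeq start (GRCm38.p6), 5′ to 3′ on the gene's strand. Capitals mark 3 motifs on either strand: TATAAA (the TATA box), CCAAT (the CCAAT box) and ATTTGCA (the core of the octamer).
Hist1h2ap (chr13:21833476-21833725, minus strand): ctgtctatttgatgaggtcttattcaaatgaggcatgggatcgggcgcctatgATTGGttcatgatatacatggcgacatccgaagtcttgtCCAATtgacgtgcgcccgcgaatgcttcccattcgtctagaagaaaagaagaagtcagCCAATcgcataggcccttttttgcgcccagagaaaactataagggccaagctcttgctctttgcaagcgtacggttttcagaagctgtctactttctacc
Hist3h2a (chr11:58954435-58954684, plus strand): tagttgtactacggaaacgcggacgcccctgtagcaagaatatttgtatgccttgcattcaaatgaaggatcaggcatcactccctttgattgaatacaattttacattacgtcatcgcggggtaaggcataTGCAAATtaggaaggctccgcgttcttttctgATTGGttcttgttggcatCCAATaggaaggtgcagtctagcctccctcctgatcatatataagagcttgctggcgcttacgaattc
Hist3h2ba (chr11:58948661-58948910, plus strand): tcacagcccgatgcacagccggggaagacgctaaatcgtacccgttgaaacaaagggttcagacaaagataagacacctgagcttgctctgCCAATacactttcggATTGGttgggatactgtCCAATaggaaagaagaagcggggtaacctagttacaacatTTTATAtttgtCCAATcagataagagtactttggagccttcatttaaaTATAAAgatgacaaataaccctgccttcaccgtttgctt
All of these hold CCAAT on both strands. TATAAA is marked only in *Hist3h2ba* and ATTTGCA only in *Hist3h2a*, on the opposite strand. The window of *Hist1h2ao* is that of *Hist1h2ap* shifted by 100 bases, with the same base at 200 of 200 overlapping positions, so it is not printed. RefSeq windows of 250 bases before to 50 after the start were found for 51 of the 58 genes, as 52 windows. CCAAT was in 82.69% of these, against 37.41% of all 32851 windows of that length. It was in 16 of 16 H2A, 15 of 15 H2B and 9 of 9 H3 windows but in 3 of 12 H4 windows. TATAAA was in 53.85% of the histone windows against 13.62% of all. ATTTGCA was in 23.08% against 4.02%, all of them H2A (6) or H2B (6) windows. These matches describe letters only.

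Expected counts summed to 19857701 to 20548571 per library. Of the T cell markers, 7 of 7 were found, with summed FPKM of 1750 to 1814 in control and 1643 in each NaBu library. Of the CD4 T cell markers, *Cd4* was at 0.02 and 0.03 in control and 0.66 and 0.65 in NaBu. *Zbtb7b* was at 20.8 and 19.2 in control and 26.1 and 26.3 in NaBu. The 3 B cell markers analysed, of 5, summed to 5.73 and 4.07 in control and 2.62 and 1.96 in NaBu, mostly *Cd79b*. The 4 myeloid markers analysed, of 6, summed to 10.4 to 12.0 in control and 32.8 to 35.2 in NaBu, mostly *Cd68*. NK cell markers summed to 9.34 to 10.5 in control and 4.94 to 5.57 in NaBu. Dendritic cell markers summed to 4.39 and 4.42 in control and 5.16 and 5.58 in NaBu. The part of these other cell types in the histone values was not tested. The test was edgeR's quasi-likelihood F test, with calls at 0.05 after Benjamini-Hochberg adjustment. Of 12943 genes tested, 68.6% were called, 34.5% higher and 34.1% lower in NaBu. The median log2 fold change of all genes tested was 0.0047.

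Core histone mRNA fell in NaBu, and nearly all of the fall was in H2A. The 58 genes together reached summed FPKM of 867 and 846 in control and 153 and 209 in NaBu, 4.97-fold lower (log2 fold change -2.31 ± 0.11 SE, 2 libraries per group, edgeR quasi-likelihood adjusted p = 1.98e-08). They took 0.0396% (95% exact Clopper-Pearson interval 0.0387 to 0.0405) and 0.0384% (0.0376 to 0.0393) of counts in control. In NaBu they took 0.00724% (0.00687 to 0.00762) and 0.00954% (0.00911 to 0.00998). These intervals cover counting error only, and the 2 NaBu intervals do not meet. In bulk RNA, fewer cells in S phase and less histone mRNA per cell cannot be told apart. The sources used here do not say whether the libraries kept RNA without a poly(A) tail, so the levels may hold only a part of these mRNAs.

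**Figure D1:**
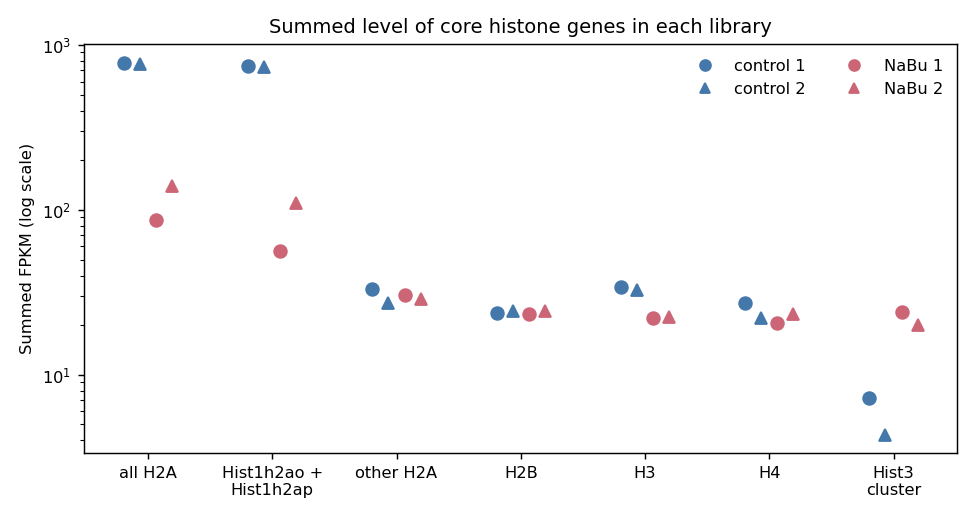
Summed FPKM (log axis) of core histone classes, of the pair *Hist1h2ao* and *Hist1h2ap*, of the other H2A genes and of the Hist3 cluster, 1 point per library. The H2A sum is 767 or more in control and 139 or less in NaBu, and the sums of the other H2A genes, H2B and H4 overlap between groups. The sum of the other H2A genes includes *Hist3h2a* and that of H2B includes *Hist3h2ba*, both higher in NaBu. Their overlap therefore does not show that the remaining genes were unchanged.

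The H2A class summed to 781 and 767 FPKM in control and to 87.1 and 139 in NaBu. Both NaBu libraries lay far below both controls. The sum fell 7.18-fold (log2 fold change -2.84 ± 0.15, edgeR adjusted p = 4.34e-08). H2A took 90.2% and 90.6% of core histone FPKM in control, and 56.9% and 66.5% in NaBu. The H3 class summed to 34.1 and 32.8 in control and 22.0 and 22.3 in NaBu, with no overlap. It fell 1.6-fold (-0.68 ± 0.10, edgeR adjusted p = 0.000127), which does not exceed 1.5-fold by edgeR's glmTreat (adjusted p = 0.186). The H2B class was at 23.7 and 24.4 in control and 23.4 and 24.4 in NaBu, which overlap (-0.16 ± 0.10, edgeR adjusted p = 0.163). That class holds *Hist3h2ba*, which was higher in NaBu (2.34 and 1.91 in control, 8.92 and 7.20 in NaBu). The overlap of the H2B sum therefore does not show that the other H2B genes were unchanged. The H4 class was at 27.4 and 22.1 in control and 20.6 and 23.3 in NaBu, which also overlap (-0.28 ± 0.14, edgeR adjusted p = 0.105). The ratio of H2A to H2B, whose proteins pair as dimers in the nucleosome, was 32.9 and 31.5 in control and 3.72 and 5.69 in NaBu. The ratio of H3 to H2B was 1.44 and 1.35 in control and 0.939 and 0.912 in NaBu.

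With each library's trend with GC content and length removed, the median of all genes moved to -0.12. H2B then stood at -0.28 (edgeR adjusted p = 0.0155), a move of the same size as that of the median. The H2A sum was at -3.55, and H4 at -0.46 (edgeR adjusted p = 0.00399), where it passed. The H4 sum also passed without control 2 (-0.44, edgeR adjusted p = 0.0283).

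A single pair of genes carried the H2A sum. *Hist1h2ap* (gene 319171, chr13:21833024-21833475) and *Hist1h2ao* (gene 665433, chr13:21810367-21810918) encode H2A from coding sequences that are identical over 390 bases. Their FPKM summed to 749 and 739 in control and to 56.5 and 110.0 in NaBu. That is 86.4% and 87.4% of core histone FPKM in control, and 36.9% and 52.7% in NaBu. The pair fell 9.53-fold (log2 fold change -3.25 ± 0.20, edgeR adjusted p = 1.41e-07; -3.98 with the GC and length trend removed). The other 15 H2A genes summed to 33.0 and 27.4 FPKM in control and 30.7 and 28.8 in NaBu. These overlap, with a log2 fold change of -0.10 ± 0.12 (edgeR adjusted p = 0.464) that changed sign without control 1 (0.05). With the GC and length trend removed this sum passed the test (-0.47, edgeR adjusted p = 0.000754). It holds *Hist3h2a*, which was higher in NaBu (4.52 and 2.42 FPKM in control, 15.0 and 12.8 in NaBu). The overlap of this sum therefore does not show that its other genes were unchanged. The split of H2A at this pair was chosen after the values were seen. Without the pair, the other 56 core histone genes summed to 118 and 107 FPKM in control and 96.6 and 98.8 in NaBu. Their sum fell 1.23-fold (-0.30 ± 0.08, edgeR adjusted p = 0.00446), a call lost without NaBu 1 (adjusted p = 0.0642) and without NaBu 2 (adjusted p = 0.068).

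Within the pair, *Hist1h2ap* was at 517 and 532 FPKM in control and 33.2 and 82.3 in NaBu. It fell by 3.28 ± 0.26 on the log2 scale (edgeR adjusted p = 1.28e-06), and by 4.08 without NaBu 2, the higher of its NaBu libraries. *Hist1h2ao* was at 231 and 207 in control and 23.2 and 27.7 in NaBu. It fell by 3.20 ± 0.10 (edgeR adjusted p = 2.53e-09). The NaBu libraries therefore differed from each other mostly in *Hist1h2ap*, whose ratio to *Hist1h2ao* was 2.24 and 2.57 in control and 1.43 and 2.97 in NaBu. Since the coding sequences are the same, how reads were divided between the 2 genes is uncertain, and their sum is the firmer value. *Hist1h2ag* and *Hist1h2ad* come next, each with 99.23% identity to *Hist1h2ap*, and *Hist1h2ag* has the longer shared run, 362 bases against 236. *Hist1h2ad* was at 0.57 FPKM in NaBu 1 and 0 elsewhere. *Hist1h2ag* was at 9.04 and 10.4 FPKM in control and 4.79 and 2.70 in NaBu (-1.47 ± 0.25, edgeR adjusted p = 0.000422), and could take or lose reads to the pair.

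**Figure D2:**
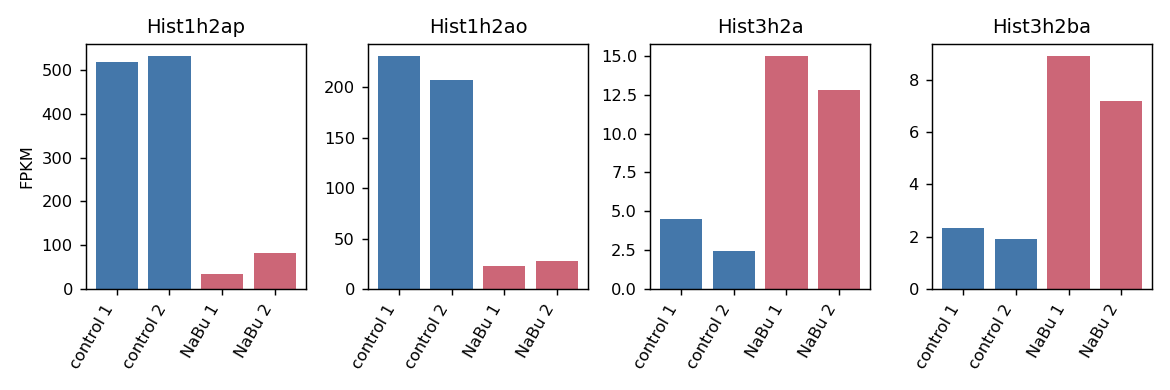
FPKM in each library for the H2A pair that fell and the 2 Hist3 genes that rose, on a linear axis of its own for each gene. *Hist1h2ap* drops from 517 or more to 82.3 or less, and *Hist3h2a* rises from 4.52 or less to 12.8 or more.

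The Hist3 cluster was higher in NaBu, where the Hist1 sum was lower. *Hist3h2a* (gene 319162, chr11:58954685-58955192) encodes H2A and *Hist3h2ba* (gene 78303, chr11:58948911-58949372) encodes H2B. *Hist3h2a* was at 4.52 and 2.42 FPKM in control and 15.0 and 12.8 in NaBu. It rose 3.74-fold (log2 fold change 1.90 ± 0.24, edgeR adjusted p = 4.66e-05). *Hist3h2ba* was at 2.34 and 1.91 in control and 8.92 and 7.20 in NaBu. It rose 3.51-fold (1.81 ± 0.26, edgeR adjusted p = 0.000129). Neither gene overlapped between groups, and both were called with each library left out in turn. The third gene of the cluster, the pseudogene *Hist3h2bb-ps*, was at 0.38 or less in every library. The cluster summed to 7.24 and 4.33 FPKM in control and 24.1 and 19.98 in NaBu (1.84 ± 0.21, edgeR adjusted p = 1.54e-05). Against the Hist1 genes outside the H2A pair, that sum was 0.0723 and 0.046 in control and 0.37 and 0.284 in NaBu. Those Hist1 genes summed to 100.2 and 94.1 FPKM in control and 65.1 and 70.3 in NaBu, with no overlap. The change in their sum was not tested. *Hist3h2a* differs from the pair at more positions than *Hist1h2ag* does, with 88.72% identity to *Hist1h2ap* and a longest shared run of 91 bases.

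The Hist1 genes together fell 5.99-fold (-2.58 ± 0.13, edgeR adjusted p = 3.62e-08; -3.26 with the GC and length trend removed), from 849 and 834 FPKM in control to 122 and 180.3 in NaBu. Hist2 genes summed to 10.4 and 8.24 in control and 7.31 and 7.94 in NaBu, with no overlap (-0.42 ± 0.15, edgeR adjusted p = 0.0243). That call was lost on library totals, with limma, with DESeq2, and without control 1, NaBu 1 or NaBu 2. *Hist4h4* was at 0.61 FPKM or less in every library and was not tested.

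Gene by gene, 29 of the 58 passed the filter on low counts. Of these, 13 were called lower and 2 higher, and 14 did not pass, beside 34.1% lower and 34.5% higher over all genes tested. The median log2 fold change of the 29 was -0.52. These counts are a description only, because 7 of the 13 (*Hist1h2ae*, *Hist1h2ak*, *Hist1h2bk*, *Hist1h2bq*, *Hist1h2br*, *Hist1h3g* and *Hist1h3i*) reached 10 counts only in the control libraries and so entered the test through the group where they were high. Of the 18 genes with 10 or more counts in all 4 libraries, 6 were called lower (*Hist1h2ap*, *Hist1h2ao*, *Hist1h2ag*, *Hist1h2ai*, *Hist1h3c* and *Hist1h4i*), 2 higher (the Hist3 genes) and 10 neither. Against a fold change of 1.5 with glmTreat, 5 of the 29 were lower and 2 higher, where 12.1% and 17.1% of all genes were. Over all 58 genes, untested ones included, FPKM of the groups did not overlap in 22 with NaBu lower and in 4 with NaBu higher. The shares over all 17559 genes were 28.7% and 41.6%. The 29 untested genes had a mean FPKM of 1.68 or less. Of the 18 genes whose GENCODE transcript has more than 100 bases after the stem-loop, 2 were called higher, 2 lower and 3 neither. These shares are close to those over all genes tested (34.5% and 34.1%), and 11 of the 18 were not tested. Of the 22 with at most 100 bases, 6 were called lower and 6 neither, and 10 were not tested; the difference was not tested.

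Single libraries moved these counts. The number called lower was 8 without control 1 and 7 without NaBu 2. *Hist1h2ap*, *Hist1h2ao*, *Hist1h2ag* and *Hist1h3c* were called lower with each library left out in turn, and by DESeq2 with all libraries. So was *Hist1h2bk*, which passed the filter through its control libraries only. *Hist1h2ai* lost its call whichever library was left out. A listed transcript length under 600 bases was found for 52 of the 58. The 217 other tested genes this short had a median log2 fold change of 0.03, and 24.9% of them were called lower.

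**Figure D3:**
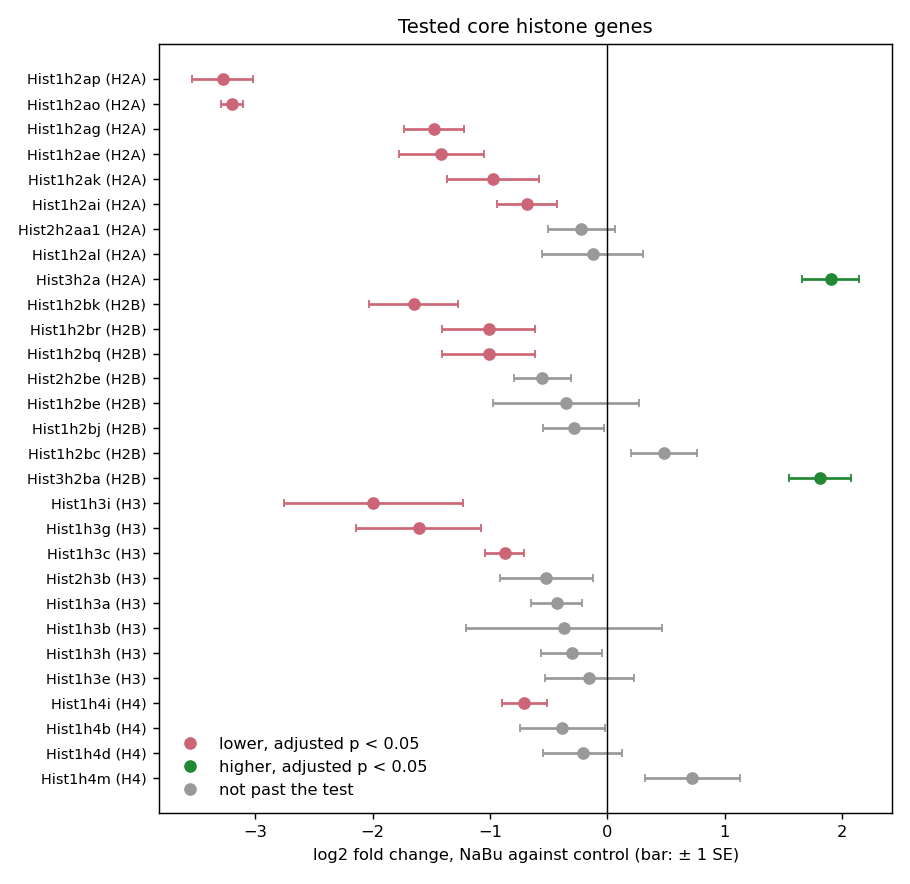
Log2 fold change (NaBu against control, bars ± 1 SE) of the 29 tested core histone genes, ordered by class and value and coloured by call. The 2 genes at the far left are *Hist1h2ap* and *Hist1h2ao*, at -3.28 and -3.20, and the 2 green points are the Hist3 genes, at 1.90 and 1.81.

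Among the H2B genes, 3 of 8 tested were called lower, near the 34.1% called lower over all genes tested. Of the 8, 1 was called higher, a smaller share than the 34.5% over all genes, and 4 neither. All 3 lower calls passed the filter only through the control libraries, and 2 of them are 1 measurement. The most abundant of the class was *Hist1h2bj*, at 5.82 and 5.72 FPKM in control and 4.08 and 6.05 in NaBu, which overlap (-0.29 ± 0.26, edgeR adjusted p = 0.346). *Hist1h2bk* was at 3.51 and 3.99 in control and 0.80 and 1.83 in NaBu. It fell by 1.65 ± 0.38 on the log2 scale (edgeR adjusted p = 0.00277), and by 2.42 without NaBu 2. *Hist1h2bc* was at 1.46 and 2.09 in control and 2.69 and 2.55 in NaBu, with no overlap, but did not pass (0.48 ± 0.28, edgeR adjusted p = 0.151). It passed with limma on log2(FPKM + 1) (adjusted p = 0.0305). *Hist1h2bq* and *Hist1h2br* had the same value in each library (2.16, 1.91, 1.34 and 0.63 FPKM), and their coding sequences are identical over 402 bases. They are therefore 1 measurement divided in equal shares, not 2, and its call held in 1 of 4 fits that left out a library.

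Among the H3 genes, 3 of 8 tested were called lower and 5 neither, near the 34.1% called lower over all genes tested. Of the 3, 2 passed the filter only through the control libraries. *Hist1h3c* (chr13:23745042-23745521), at 14.4 and 13.4 FPKM in control and 7.26 and 8.95 in NaBu, had the highest mean over the 4 libraries outside the H2A pair. The groups did not overlap, and it fell by 0.87 ± 0.17 (edgeR adjusted p = 0.000806). *Hist1h3a* was at 6.55 and 5.55 in control and 4.89 and 4.69 in NaBu, and *Hist1h3h* at 3.85 and 3.46 against 3.15 and 3.17. Neither overlapped, and neither passed (-0.43 ± 0.22, edgeR adjusted p = 0.101, and -0.30 ± 0.26, adjusted p = 0.317). Both passed with the GC and length trend removed (-0.81 and -1.01). *Hist1h3e* was at 1.79 and 1.60 in control and 1.26 and 1.89 in NaBu, which overlap. The other calls in the class, *Hist1h3g* and *Hist1h3i*, rest on low levels: 3.18 FPKM was the highest value of either in any library, and *Hist1h3i* was at 0 in NaBu 2 in the deposited table of all libraries, while the list of that library alone leaves it out. Of the 4 fits that left out a library, *Hist1h3g* was called in 1, without NaBu 2 (-2.57). *Hist1h3i* lost its call without control 2 and without NaBu 2.

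Among the H4 genes, 1 of 4 tested was called, as lower, beside 34.1% lower over all genes tested. *Hist1h4i* (chr13:22040960-22041362) was at 12.2 and 10.5 FPKM in control and 7.91 and 6.91 in NaBu. It fell by 0.71 ± 0.19 (edgeR adjusted p = 0.00687). That call was lost with DESeq2 (adjusted p = 0.086), with glmTreat (adjusted p = 0.294) and without NaBu 2 (-0.61). *Hist1h4d* was at 5.95 and 3.96 in control and 3.32 and 5.85 in NaBu, and *Hist1h4b* at 2.83 and 1.76 against 1.96 and 1.83. Both overlap. *Hist1h4m* was at 2.57 and 1.22 in control and 3.88 and 2.85 in NaBu, with no overlap (0.73 ± 0.40, edgeR adjusted p = 0.132). Only in NaBu, the group where it was higher, did *Hist1h4m* have 10 or more counts in both libraries. Its counts were 19.63 and 9.42 in control and 28.94 and 21.26 in NaBu, so its test is a description only. Its log2 fold change was 1.41 without control 1, the higher of its control libraries, and 0.25 without control 2.

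**Figure D4:**
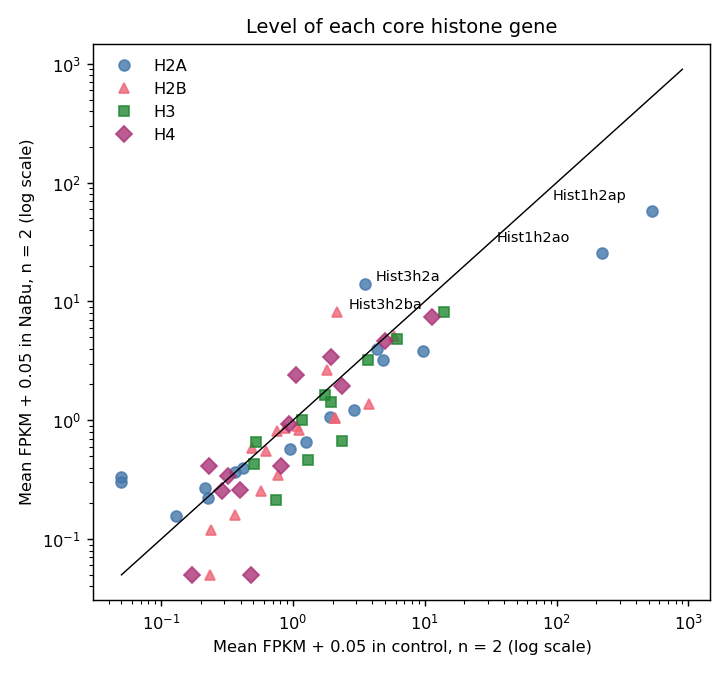
Mean FPKM of each of the 58 core histone genes in control and in NaBu (2 libraries each, log axes, 0.05 added so that genes at 0 can be drawn), with the line of equal level. Apart from *Hist1h2ap* and *Hist1h2ao*, all genes have group means of 13.9 FPKM or less, and the 2 Hist3 genes lie above the line.

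The copies within a class are alike in sequence. Median coding identity over pairs of equal length was 97.44% in H2A, 94.71% in H2B, 97.55% in H3 and 93.85% in H4. Fractional counts arise where reads are divided between genes. In control 1, 15 of 17 H2B, 10 of 11 H3 and 10 of 13 H4 genes had them. The sums over H2B (274.0), H3 (323.0) and H4 (207.0) were nonetheless whole numbers within 0.02 in that library, as they were in the other 3. The H2A sum was whole within that tolerance only in control 2.

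The machinery that makes and finishes these mRNAs was partly lower. SLBP is encoded by *Slbp*, which was at 77.6 and 86.6 FPKM in control and 38.0 and 39.7 in NaBu. It fell 2.26-fold (log2 fold change -1.18 ± 0.07, edgeR adjusted p = 1.62e-07). In the list of histone transcription and stem-loop processing genes, 10 of 17 fell and 7 did not pass (of which 2 were called higher on library totals), with a median of -0.62, beside 34.1% lower and a median of 0.0047 over all genes. *Srrt*, which links the cap to 3′ end processing, fell by 1.13. *Zfp473*, a protein of the processing complex, fell by 1.00, and *Eri1*, the exonuclease that trims the stem-loop, by 0.77. *Npat* was at 8.93 and 10.5 FPKM in control and 8.89 and 8.75 in NaBu, without overlap, and fell by 0.24 ± 0.08 (edgeR adjusted p = 0.0232). *Casp8ap2*, a cofactor of histone gene transcription, overlapped at 11.1 and 13.5 against 11.6 and 11.2 (-0.20 ± 0.09, edgeR adjusted p = 0.0625). Past a fold change of 1.5 by glmTreat, 5 of the 17 were lower, beside 12.1% of all genes tested.

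Genes that carry histones from synthesis to chromatin were also mostly lower: 16 of 21 chaperone and import genes fell and 4 did not pass, with a median of -0.58, beside 34.1% lower and a median of 0.0047 over all genes. The other, *Cabin1*, was called higher at 0.21, a call lost without NaBu 1 and without NaBu 2. *Nasp*, a chaperone of free H3 and H4, was at 38.0 and 49.5 FPKM in control and 18.4 and 18.6 in NaBu (-1.35 ± 0.11, edgeR adjusted p = 1.51e-06). *Asf1b*, which hands H3 and H4 to the assembly factors, was at 97.1 and 99.8 in control and 49.5 and 49.4 in NaBu (-1.09 ± 0.06, edgeR adjusted p = 7.96e-08). Both were lower in each NaBu library than in each control. By glmTreat 9 of the 21 were lower by more than 1.5-fold, beside 12.1% of all genes tested.

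S phase genes fell. All 35 genes of the DNA replication list were called lower (34 without NaBu 1 or without NaBu 2), with a median of -1.29, and all 10 S phase kinase and E2F genes, with a median of -1.14, beside 34.1% lower over all genes. *Ccna2*, the S phase cyclin, was at 116 and 124 FPKM in control and 16.6 and 17.5 in NaBu (-2.91 ± 0.07, edgeR adjusted p = 1.29e-09). The replication list summed to 2671 and 2793 FPKM in control and 1227 and 1281 in NaBu. *Slbp* belongs to this list too, and *Mcm2* is in both this list and the list of chaperone and import genes. The H2B and H4 sums overlapped between groups in libraries where this sum did not. The H2B sum holds *Hist3h2ba*, which was higher in NaBu, and the Hist1 sum outside the H2A pair did not overlap. A difference between these lists and the histone classes was not tested.

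**Figure D5:**
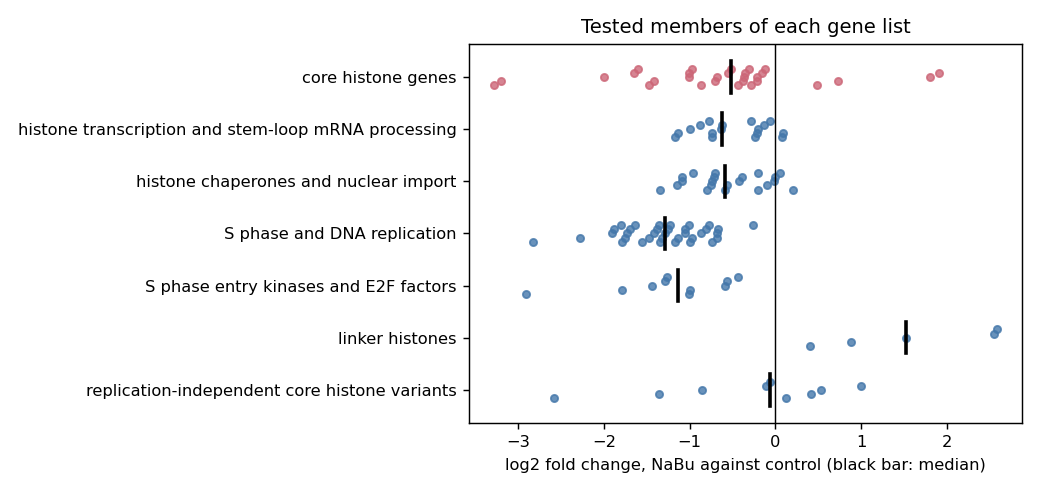
Log2 fold change of each tested gene (points) in the core histone genes and 6 related lists, with the median as a black bar. All S phase points lie left of 0, and all 5 linker histone points lie right of it.

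Other histone genes were compared as well. Linker histones bind the DNA between nucleosomes. Of 5 tested, 3 rose and 2 did not pass, beside 34.5% higher over all genes. *Hist1h1c*, which has a Hist1 symbol, was at 8.13 and 5.26 FPKM in control and 44.5 and 41.8 in NaBu (2.59 ± 0.15, edgeR adjusted p = 1.14e-07). *H1fx* was at 1.95 and 2.24 FPKM in control and 13.2 and 13.1 in NaBu (2.55 ± 0.14, edgeR adjusted p = 9.28e-08). Core histone variants encoded outside the clusters had 3 of 9 higher, 3 lower and 3 neither, about the shares over all genes (34.5% and 34.1%). Higher calls were 2 by DESeq2, 2 without control 2, NaBu 1 or NaBu 2, and 0 by glmTreat, where the lower calls were 3. Over all genes tested, glmTreat called 12.1% lower and 17.1% higher. *Cenpa*, the H3 variant of centromeres, was at 61.5 and 62.3 in control and 10.5 and 11.5 in NaBu (-2.58 ± 0.08, edgeR adjusted p = 2.41e-09). *H2afx* and *H2afz*, H2A variants of DNA damage signalling and of promoters, fell by 1.36 and 0.86. *H2afj*, an H2A variant, rose by 0.53 ± 0.10 (edgeR adjusted p = 0.000777), from 24.4 and 22.4 FPKM to 32.3 and 40.1. The list summed to 1290 and 1279 FPKM in control and 1301 and 1279 in NaBu, which overlap.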

How the data were processed

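RNA-seq of 2 control and 2 NaBu libraries was used, grouped by the sample titles. Per the submitters' processing notes the tools were Bowtie2 and RSEM and the build mm10; the sources used here give no versions, library kit or strandedness. The authors' expected counts are RSEM estimates, as deposited, and were rounded to whole numbers for testing (sums after summation). The authors' FPKM values are scaled to transcript length and library size, per the file headers, and are printed as deposited. A gene not listed in a library was set to 0.

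The test was edgeR 4.0.16 (R 4.3.3; TMM, filterByExpr, quasi-likelihood F test, Benjamini-Hochberg over 12943 genes). Sums replaced their members in the whole table. Fold changes use TMM, so they differ slightly from ratios of FPKM. Standard errors were derived from the log2 fold change and its F. No exact permutation test was run, since 2 libraries against 2 allow no two-sided p under 0.333. Alternatives were library totals, median-of-ratios factors, no filter, limma 3.58.1 on log2(FPKM + 1) and log2(FPKM + 0.1), DESeq2 1.42.0, glmTreat at 1.5-fold, leaving out each library and a block for the replicate number. The removal of GC and length trends was added after seeing the data.

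The members and lists were chosen with earlier results of these data known. Named by rule are, per class, the 4 tested genes with the highest mean FPKM and calls against their class. So are the 2 largest calls per direction and up to 4 called genes per list by size (not all printed). Both of these needed a mean FPKM of at least 1 in the higher group. *Slbp*, *Npat* and *Casp8ap2* are named in any case. *Hist1h2ae*, *Hist1h2ai*, *Hist1h2ak*, *Hist1h2bq*, *Hist1h2br*, *Hist1h3g*, *Hist1h3i*, *Hist4h4*, *Hist3h2bb-ps*, *Hist1h2al*, *Hist1h2ad*, *Cabin1* and the genes of the closing section outside the rule were named after their values were seen. Promoters and coordinates are from RefSeq (GRCm38.p6), and transcripts from GENCODE M21.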

Additional observations from a re-analysis of the deposited data

How the results depend on the processing

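With 2 libraries per group and 2 residual degrees of freedom, calls of genes near 1 FPKM rest on few counts. Counts of genes called lower were 5 by DESeq2 and 5 by glmTreat, and 7 to 11 with a library left out; the cause was not tested. The H3 sum did not pass glmTreat (-0.68, adjusted p = 0.186). The H4 sum ranged from -0.44 to -0.11 with a library left out. With the GC and length trend removed, H2B was at -0.28, H4 at -0.46 and H2A without the pair at -0.47, all then past the test. All genes shifted down in that setting. Their median was -0.12, and 5659 of 12943 genes were called lower, against 4413 in the main fit. H2A without the pair ranged from -0.25 to 0.049 with a library left out, reversing without control 1 (0.049). Hist2 lost its call on library totals (-0.32), with limma at a pseudocount of 1 (-0.25, also without a filter) or 0.1 (-0.28), with DESeq2 (-0.42) and glmTreat (-0.42), and ranged from -0.55 to -0.30 with a library left out. All genes without the pair lost their call with limma without a filter (-0.20) and with glmTreat (-0.30), and ranged from -0.38 to -0.23 with a library left out. *Hist1h3e* reversed without NaBu 1 (-0.50 to 0.12 over libraries left out), and *Hist1h4d* without control 1 (0.12) and without NaBu 1 (-0.68 to 0.14). The sums of all genes, H2A, the pair, Hist1 and Hist3 kept their direction and call in all settings run. The replicate number gave no sign of pairing. Over the genes tested, the difference between control 1 and control 2 had a correlation of -0.0501 with that between NaBu 1 and NaBu 2. With the replicate number as a block, 12 genes were called lower and 2 higher, and the H2A sum was at -2.87.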

Other observations

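By RefSeq coordinates, 11 pairs of core histone genes lie head to head, with start sites less than 1000 bases apart on opposite strands. All pair an H2A with an H2B gene except *Hist1h2bh* and *Hist1h3f*. The H2A pair of highest level had partners of low level. *Hist1h2ap* starts 268 bases from *Hist1h2br* and averaged 525 FPKM in control against 2.04 for its partner. *Hist1h2ao* starts 168 bases from *Hist1h2bq* and averaged 219 FPKM against the same 2.04. In NaBu the H2A partners averaged 57.8 and 25.5 FPKM and the H2B partners 0.985. *Hist1h2ag* and *Hist1h2bj*, another such pair, were at 9.71 and 5.77 FPKM in control and 3.75 and 5.06 in NaBu, and only the H2A gene was called lower; the difference between partners was not tested. Levels of the other partners varied. In control, *Hist2h2ac* and *Hist2h2be* were close, at 0.90 and 1.06 FPKM. *Hist1h2ah* and *Hist1h2bk* were at 0.315 and 3.75, and *Hist1h2bl* and *Hist1h2ai* at 0.575 and 4.80.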
